A study of Mus musculus with 6 samples.

Results

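The 10 genes described here encode transcription factors that T cells switch on or use when their antigen receptor is engaged: the orphan nuclear receptors Nr4a1, Nr4a2 and Nr4a3, the zinc finger factors Egr1, Egr2 and Egr3, the calcium-regulated factors Nfatc1, Nfatc2 and Nfatc3, and the interferon regulatory factor Irf8. They were chosen by name, as the array rows whose platform annotation names 1 of these genes alone, and all 10 were found among the 30701 genes tested. Together they have 12 rows, because Egr3 has 3, and for Egr3 the brightest of them on average was used, with the others given beside it.

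RNA was taken from mouse CD4+ T cells that had been sorted as naive, stimulated through CD3 and CD28, and kept for 3 days under conditions that favour TH17 cells, the helper cells that secrete IL-17. In 1 group the medium lacked glutamine (without glutamine, 3 arrays), and in the other it held glutamine (with glutamine, 3 arrays). Both groups shared the rest of the medium, with 10% serum and 3 cytokines, namely 20 ng/ml IL-6, 20 ng/ml IL-23 and 1.25 ng/ml TGFb. Neutralising antibodies to IL-4, IL-12 and IFNg were present at 10 ug/ml. The comparison asks what the lack of glutamine does to transcript levels. The labels call the arrays biological replicates without naming the mice they came from, and the spread behind each p-value is that among these arrays. Strain and age are not used here.

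When the antigen receptor is bound, calcium enters the cell and the phosphatase calcineurin strips phosphates from NFAT proteins, which then enter the nucleus. A parallel route through RAS, the kinase ERK and the factors ELK1 and SRF turns on the EGR genes, while the NR4A genes follow within the first wave of the response and their transcripts are widely read as a sign of recent receptor signalling. EGR2, EGR3 and the NR4A receptors are known to restrain T cells and to take part in tolerance and exhaustion, and IRF8 has been described as limiting TH17 differentiation in mice.

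The promoters of the NR4A genes are shown because these genes moved together, and those of Egr2 and Irf8 because they carry motifs of other kinds. The windows run from 250 bases before to 50 bases after the transcription start and come from RefSeq on GRCm38.p6. Of the 10 genes, 7 matched, with 14 windows in all, and Egr1, Egr3 and Nfatc1 are named only. In the NR4A windows, capitals mark TGACG or its reverse complement, the half-site of the cyclic AMP response element (CRE) that CREB family factors bind.
Nr4a1: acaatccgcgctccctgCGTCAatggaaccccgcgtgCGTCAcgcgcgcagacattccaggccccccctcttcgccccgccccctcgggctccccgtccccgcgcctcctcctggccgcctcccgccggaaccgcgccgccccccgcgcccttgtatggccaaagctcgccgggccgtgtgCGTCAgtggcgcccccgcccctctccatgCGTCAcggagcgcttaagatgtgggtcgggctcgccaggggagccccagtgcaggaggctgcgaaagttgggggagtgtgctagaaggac
Nr4a2: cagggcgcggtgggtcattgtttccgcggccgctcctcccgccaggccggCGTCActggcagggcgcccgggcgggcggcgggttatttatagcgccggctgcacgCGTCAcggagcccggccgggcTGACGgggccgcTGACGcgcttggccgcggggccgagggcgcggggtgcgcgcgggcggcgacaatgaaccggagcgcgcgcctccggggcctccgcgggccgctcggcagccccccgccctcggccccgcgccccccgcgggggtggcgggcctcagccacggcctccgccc
Nr4a3: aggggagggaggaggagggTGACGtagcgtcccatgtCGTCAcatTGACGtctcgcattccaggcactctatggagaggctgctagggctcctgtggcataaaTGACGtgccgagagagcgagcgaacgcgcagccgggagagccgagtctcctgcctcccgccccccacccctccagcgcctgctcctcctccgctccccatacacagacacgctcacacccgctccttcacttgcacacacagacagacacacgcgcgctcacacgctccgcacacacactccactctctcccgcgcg
In the Egr2 window the capitals mark a CArG box, the site of SRF, and in the Irf8 window they mark 2 matches to TTCNNNGAA, the GAS site that STAT factors bind.
Egr2: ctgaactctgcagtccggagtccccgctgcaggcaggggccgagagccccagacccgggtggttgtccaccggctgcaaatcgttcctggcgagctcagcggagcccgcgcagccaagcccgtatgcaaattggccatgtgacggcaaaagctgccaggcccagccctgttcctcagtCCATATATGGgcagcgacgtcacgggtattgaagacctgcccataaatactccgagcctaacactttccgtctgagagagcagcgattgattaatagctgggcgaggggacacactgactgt
Irf8: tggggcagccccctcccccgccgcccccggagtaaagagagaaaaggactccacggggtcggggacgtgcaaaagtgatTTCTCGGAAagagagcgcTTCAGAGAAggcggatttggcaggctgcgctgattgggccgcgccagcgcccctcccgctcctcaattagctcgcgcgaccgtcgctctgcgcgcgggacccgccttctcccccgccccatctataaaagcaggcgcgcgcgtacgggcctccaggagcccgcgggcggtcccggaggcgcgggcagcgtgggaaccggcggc

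The Nr4a1 window is chr15:101266596-101266895 on the plus strand, the Nr4a2 window chr2:57123954-57124253 on the minus strand and the Nr4a3 window chr4:48045055-48045354 on the plus strand. The Egr2 window is chr10:67537619-67537918 and the Irf8 window chr8:120736108-120736407, both on the plus strand. Each of the NR4A windows held 4 CRE half-sites. Of all 32851 windows in the table, searched on both strands, 20.8% held at least 1 and 0.23% (76 windows) held 4 or more. The NR4A windows are rich in G and C (72.3% in Nr4a1, 81.7% in Nr4a2 and 64.7% in Nr4a3). Among the 6218 windows with a GC share at least as high as that of Nr4a3, 32.4% held a half-site and 0.56% held 4 or more. The Egr2 window shown had 2 half-sites, 111 and 55 bases before the start, on either side of its CArG box. Another window of Egr2 held a CArG box and no half-site. Of the 5 windows of Egr2, 4 held a CArG box, which 1.63% of all windows have, and several of these windows overlap. An EGR site, GCGNGGGCG, stood 60 bases before the start of Nr4a1 and 74 bases before that of Nr4a2, against a share of 5.55% of all windows. That share covers windows of any GC content, while the pattern itself is made of G and C. Its share among windows as rich in G and C as these was not counted. The NFAT core GGAAA, present in 61.3% of all windows, had 1 match in Nr4a2 and none in the windows of Nr4a1 or Nr4a3. In the Irf8 window shown the matches to TTCNNNGAA, a pattern found in 8.30% of windows, began 171 and 153 bases before the start, the first overlapping an NFAT core. Irf8 has 2 windows, and the other held no match to this pattern. The windows shown for Egr2 and Irf8 were picked for their matches. The full CRE TGACGTCA, which contains the half-site on both strands, and the NR4A site AAAGGTCA matched in none of the 14 windows, and they occur in 1.79% and 1.51% of all windows. A match describes letters in a window and does not show that a factor binds there.

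**Figure D1:**
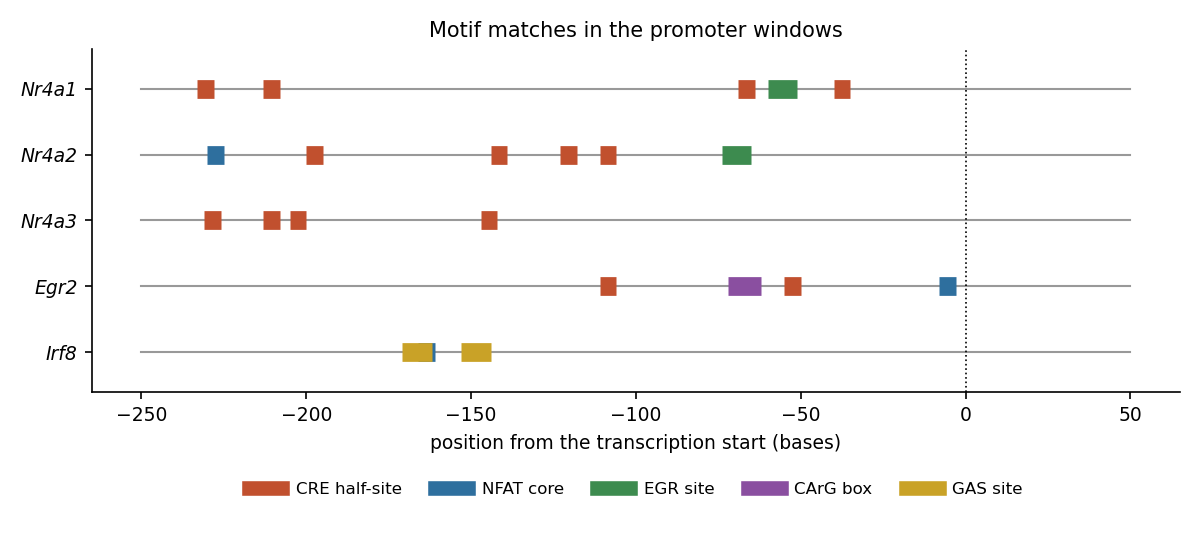
Motif matches in 5 promoter windows, by position from the transcription start in bases (x axis) and gene (y axis); coloured blocks are matches on either strand. Nr4a1, Nr4a2 and Nr4a3 each carry 4 CRE half-sites. The Egr2 window shown, 1 of 5, carries a CArG box between 2 half-sites. The Irf8 window shown, 1 of 2, carries 2 GAS sites.

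The values are log2 levels on the deposited scale. The median over all rows of an array lay between 4.33 and 4.38 without glutamine and between 4.18 and 4.21 with it, and between 854 and 887 rows without glutamine and between 695 and 786 with it stood above 16, past what a 16-bit scanner can record in log2. Differences are therefore given on this scale and not turned into folds. Levels of different genes are not compared with each other, except that some are placed against the median gene or the range of the arrays. The cells had the T cell transcripts their label names: the 8 of 10 T cell markers measured averaged 14.1 to 14.2 log2 per array without glutamine and 13.9 to 14.0 with it, and 2 of them, Cd5 and Cd3d, passed the test below as higher without glutamine. Neither call held throughout: after quantile normalization Cd5 was not called (adjusted p = 0.468) while Cd4 and Cd3e were called lower (-0.52 and -0.42), and Cd3d was lost without replicate 1 or 2 without glutamine (0.0559 and 0.0632) or replicate 2 with it (0.0579). All 6 measured B cell markers lay below the median gene in both groups. Of 12 myeloid and dendritic cell markers, 11 lay below it in each group, the exception being Siglech without glutamine and Lyz2 with it. Markers named here and with Irf8 were picked with their values in view. Of the CD8 T cell markers, Cd8a lay near the low end of the arrays (3.78 ± 0.05 without glutamine and 3.83 ± 0.08 with it). Cd8b1 lay above the median gene in both groups, at 7.39 ± 0.09 without glutamine and 8.10 ± 0.25 with it, and was lower without glutamine (-0.71). Of 4 NK cell markers, 3 lay below the median gene without glutamine and 2 with it. Of the 4, 1 passed, Klre1, and it was lower without glutamine (-0.69). The part of these markers in the results was not tested. A change in a culture's RNA can come from fewer cells of a kind or from less RNA per cell, and the arrays cannot tell these apart.

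Without glutamine the NR4A receptors fell, 2 of the 3 NFAT genes, 2 of the 3 EGR genes and Irf8 rose, and Egr3 and Nfatc2 did not pass the test. By limma with Benjamini-Hochberg adjustment over all genes and a threshold of 0.05, 5 of the 10 genes were higher and 3 lower without glutamine. Over all genes tested, 22.3% passed, 9.30% of them upward and 13.0% downward as shares of all genes. In the same 8 genes the groups did not overlap, as in 43.8% of all genes, 25.0% with the group without glutamine above and 18.8% with it below. The median difference of the 10 genes was 0.34, against 0.060 over all genes.

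**Figure D2:**
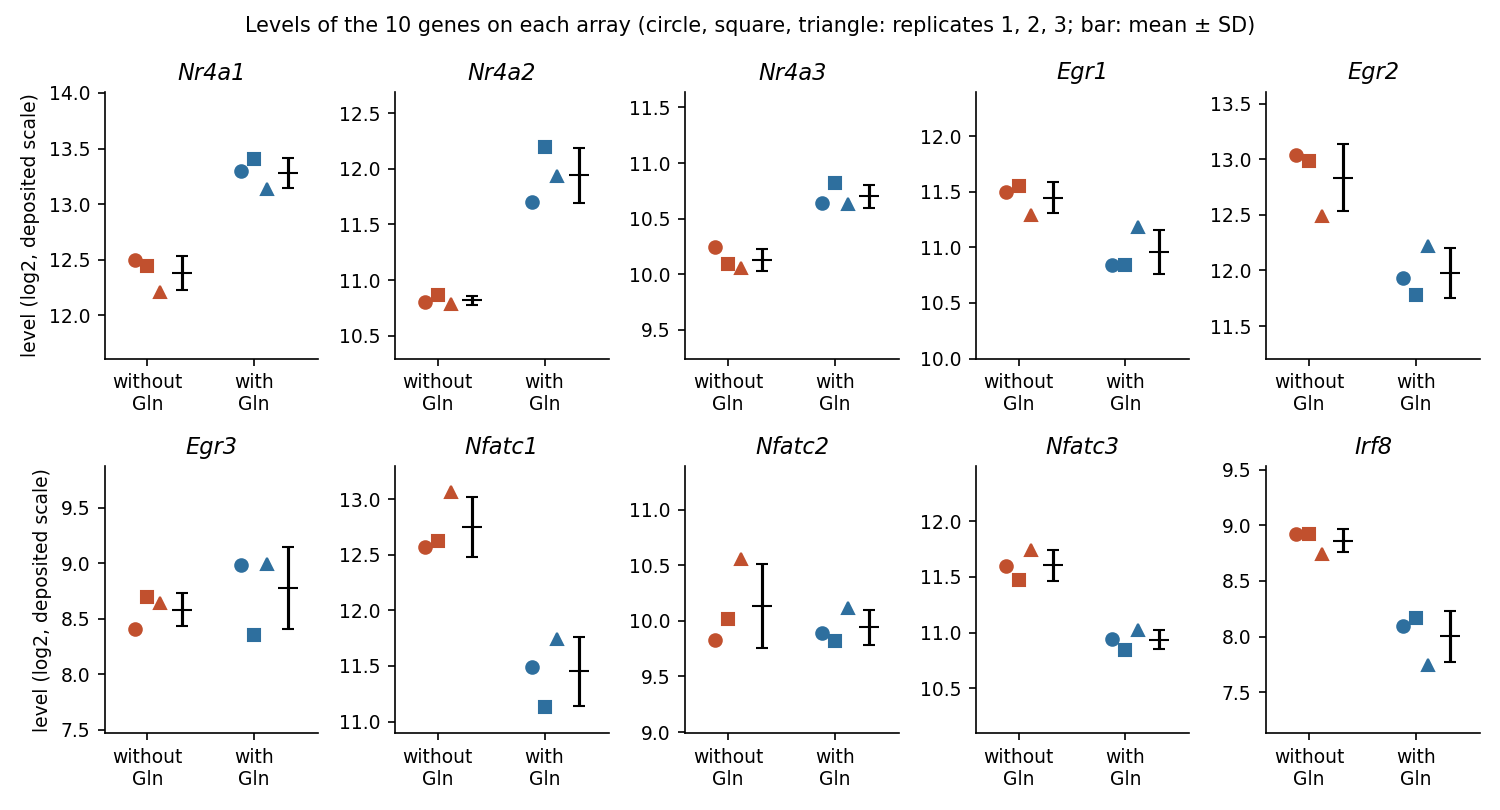
Levels of the 10 genes (y axis, log2 on the deposited scale, each panel spanning the same height) on each array without (red) and with (blue) glutamine; symbols mark replicates and bars give the mean ± SD of 3 arrays. The 3 NR4A genes sit lower without glutamine, Egr1, Egr2, Nfatc1, Nfatc3 and Irf8 sit higher, and the groups overlap for Egr3 and Nfatc2.

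Nr4a1, which encodes Nur77 and is used as a reporter of antigen receptor signalling, had levels of 12.50, 12.44 and 12.21 log2 without glutamine, against 13.30, 13.41 and 13.14 with glutamine. Every array without glutamine lay below every array with it. The mean was 12.38 ± 0.15 without glutamine and 13.28 ± 0.14 with it (SD, n = 3 each), a difference of -0.90 (SE 0.11, limma adjusted p = 0.00256). Nr4a2, which encodes Nurr1, had levels of 10.80, 10.86 and 10.79 log2 without glutamine, against 11.70, 12.20 and 11.93 with it. The arrays without glutamine were nearly level with each other, and those with glutamine were spread wider and lay above them. Nr4a2 had the largest fall among the 10 genes, -1.13 (SE 0.13, limma adjusted p = 0.00192), with means of 10.82 ± 0.04 without glutamine and 11.94 ± 0.25 with it.

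Nr4a3, which encodes NOR1, had levels of 10.24, 10.10 and 10.06 log2 without glutamine, against 10.64, 10.82 and 10.64 with it. It too fell with no overlap, by 0.57 (limma adjusted p = 0.00596; 10.13 ± 0.098 without glutamine and 10.70 ± 0.105 with it). The 95% intervals of the differences ran from -1.16 to -0.64 for Nr4a1, from -1.43 to -0.82 for Nr4a2 and from -0.78 to -0.36 for Nr4a3. Whether these falls differ in size was not tested. Each of the 3 calls held after quantile normalization, after centring the arrays on their medians and without any 1 array.

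The EGR genes did not move as a block. Egr2, a factor linked to anergy and to the control of autoreactive T cells, had levels of 13.03, 12.99 and 12.49 log2 without glutamine, against 11.94, 11.78 and 12.22 with it. The lowest array without glutamine, replicate 3, stood 0.26 above the highest with glutamine, also a replicate 3. The difference was 0.86 (SE 0.18, limma adjusted p = 0.0176), with means of 12.84 ± 0.30 without glutamine and 11.98 ± 0.23 with it. Egr1, an early response gene of many cell types, had levels of 11.50, 11.55 and 11.29 log2 without glutamine, against 10.84, 10.84 and 11.19 with it. Its groups lay closer, 0.10 apart at their nearest arrays. Egr1 rose by 0.49 (SE 0.12, limma adjusted p = 0.0337), with means of 11.45 ± 0.14 without glutamine and 10.96 ± 0.20 with it.

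Both EGR calls were lost without replicate 1 or 2 of either group and held without replicate 3 of either. The adjusted p of Egr2 was 0.0561 without the glutamine-free replicate 1, 0.0679 without the glutamine-free replicate 2, 0.0517 without replicate 1 of the cultures with glutamine and 0.0593 without their replicate 2. For Egr1 the same omissions gave 0.0929, 0.111, 0.095 and 0.106. Egr1 also missed the threshold after quantile normalization (0.41, adjusted p = 0.0586) and after centring (0.33, adjusted p = 0.0909), whereas Egr2 kept its call under both.

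Egr3, the close relative of Egr2, had levels of 8.41, 8.70 and 8.64 log2 without glutamine on its brightest row, against 8.98, 8.35 and 8.99 with glutamine. The groups overlapped, since replicate 2 with glutamine lay below all arrays without it. The difference was -0.19 with a 95% interval of -0.64 to 0.25 (limma adjusted p = 0.492). With each row tested on its own, a second Egr3 row had levels of 7.32, 7.28 and 7.31 log2 without glutamine, against 7.73, 7.45 and 7.83 with it. On that row the groups did not overlap and the difference was -0.37 (limma adjusted p = 0.0496 over all rows that name 1 gene). The third row differed by -0.15 (adjusted p = 0.292), so the 3 rows share a direction, and 1 of them passed. The test therefore gives no rise of Egr3 on any row beside the rises of Egr1 and Egr2. Among 11 measured genes listed as relatives of the members, 2 rose and 2 fell, with a median difference of 0.12 (-0.032 after centring and 0.0029 after quantile normalization), and 1 of these calls, that of Irf5, held under both scalings and without any 1 array. The other fall was that of Nfatc2ip, which encodes a binding protein of NFATc2 and not a family member. Egr4, the remaining EGR gene, lay at 5.84 ± 0.05 log2 without glutamine and 5.81 ± 0.16 with it (adjusted p = 0.80).

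Nfatc1, the NFAT gene known for inducing itself in activated T cells, rose most among the 10 genes. Its levels were 12.57, 12.62 and 13.06 log2 without glutamine, against 11.49, 11.13 and 11.74 with it. The groups were 0.82 apart at their nearest arrays. The difference was 1.30 (SE 0.19, limma adjusted p = 0.00528; 12.75 ± 0.27 without glutamine and 11.45 ± 0.31 with it), which stands at percentile 99.5 of the differences of all genes tested. Nfatc3, an NFAT gene that T cells express before stimulation, had levels of 11.60, 11.47 and 11.75 log2 without glutamine, against 10.94, 10.85 and 11.02 with it. It rose by 0.67 with no overlap (SE 0.09, limma adjusted p = 0.00444; 11.61 ± 0.14 without glutamine and 10.94 ± 0.09 with it). Both calls held under both scalings and without any 1 array.

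Nfatc2, the NFAT gene whose protein is the best known partner of AP-1 in resting and newly stimulated T cells, had levels of 9.83, 10.01 and 10.56 log2 without glutamine, against 9.89, 9.82 and 10.12 with it. Replicate 3 without glutamine was high, and the other arrays of the groups lay among each other. The difference of 0.19 had a 95% interval of -0.27 to 0.65 (limma adjusted p = 0.508), which includes 0. Without the glutamine-free replicate 3 the sign turned, at -0.0215. Among NFAT relatives, Nfat5, the factor that responds to osmotic stress and does not depend on calcineurin, lay at 12.64 ± 0.17 log2 without glutamine and 11.94 ± 0.37 with it (0.70, adjusted p = 0.0423). That call was lost under both scalings (0.0868 after centring and 0.0865 after quantile normalization) and without any 1 array other than replicate 3 of the cultures with glutamine (0.0723 to 0.118). Nfatc4 stood below the median gene, at 3.89 ± 0.05 without glutamine and 3.77 ± 0.06 with it (adjusted p = 0.246). Nfatc2ip, which encodes a protein that binds NFATc2, fell by 0.54 (adjusted p = 0.0182), a call lost without the glutamine-free replicate 2 (0.0637) or 3 (0.0621).

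**Figure D3:**
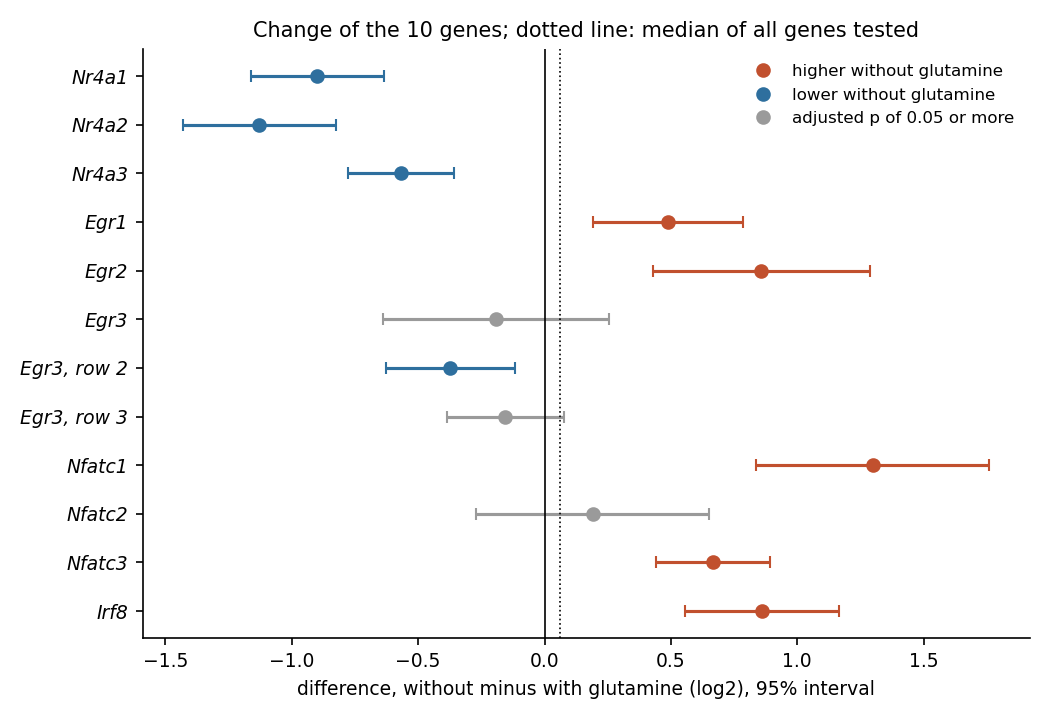
Differences without minus with glutamine (x axis, log2; points are means over 3 arrays a group and bars 95% intervals) for the 10 genes and the 2 dimmer rows of Egr3, which were tested over all rows that name 1 gene. The intervals of the 3 NR4A genes lie below 0, those of Egr1, Egr2, Nfatc1, Nfatc3 and Irf8 above it, and those of Nfatc2 and of the Egr3 row used include it.

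Irf8, best known for its part in the development of dendritic and B cells, had levels of 8.92, 8.92 and 8.74 log2 without glutamine, against 8.09, 8.17 and 7.74 with it. The arrays without glutamine all lay above those with it. The difference was 0.86 (SE 0.13, limma adjusted p = 0.00512), with means of 8.86 ± 0.10 without glutamine and 8.0005 ± 0.23 with it, and the call held under both scalings and without any 1 array. No measured marker of B, myeloid or dendritic cells passed the test upward. The 6 B cell markers averaged 3.83 to 3.93 log2 per array without glutamine and 3.79 to 3.83 with it, and none passed the test. The 12 myeloid and dendritic markers averaged 3.82 to 3.85 without glutamine and 3.94 to 3.97 with it, and the 1 that passed, the lysozyme gene Lyz2, was lower without glutamine (4.14 ± 0.14) than with it (5.80 ± 0.33). Siglech, a marker of plasmacytoid dendritic cells, was 4.78 ± 0.12 without glutamine and 4.59 ± 0.04 with it, with no overlap between the groups and an adjusted p of 0.135. The part of such cells in the rise of Irf8 was not tested.

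Among the other 7 IRF genes measured, Irf4, which is needed for TH17 differentiation, lay at 16.75 ± 0.07 log2 without glutamine and 16.24 ± 0.16 with it. Its rise of 0.51 (adjusted p = 0.012) was lost after quantile normalization (adjusted p = 0.455), and its level lies in the range above 16. Irf5 fell by 0.51 (5.05 ± 0.08 without glutamine and 5.56 ± 0.15 with it; adjusted p = 0.0119). Irf1 (0.37), Irf2 (0.53), Irf3 (0.16), Irf7 (-0.54) and Irf9 (-0.16) did not pass on the deposited scale. Irf7 was called lower after centring (-0.70, limma adjusted p = 0.0231) and after quantile normalization (-0.72, limma adjusted p = 0.0238). Leaving out replicate 3 with glutamine also gave a lower call for Irf7 (adjusted p = 0.0342). Irf1 was called higher without replicate 1 with glutamine (adjusted p = 0.0486). Of 7 genes for factors that IRF8 is known to pair with or act beside, 2 fell and none rose, with a median difference of -0.29. Batf3, an AP-1 family partner of IRF8 in dendritic cells, was 5.80 ± 0.14 log2 without glutamine and 7.60 ± 0.23 with it (-1.81, adjusted p = 0.000457). Bcl6, which encodes a repressor needed for the follicular helper programme, was 6.94 ± 0.01 without glutamine and 7.86 ± 0.08 with it (-0.92, adjusted p = 0.000468).

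Upstream of NFAT, genes of calcium entry and calcineurin moved in both directions. Of 13 measured genes, 3 rose and 2 fell, with a median difference of 0.18 that shrank to 0.026 after centring and 0.0255 after quantile normalization. Orai3, a subunit of store-operated calcium channels, fell by 1.89 (6.18 ± 0.06 log2 without glutamine and 8.07 ± 0.11 with it; adjusted p = 8.83e-05), while its relative Orai2 rose by 0.70 (adjusted p = 0.00847). Itpr2, a receptor that releases calcium from the endoplasmic reticulum, was 9.62 ± 0.12 without glutamine and 8.19 ± 0.07 with it (1.42, adjusted p = 0.000238). Of these 5 calls, 4 held under both scalings and without any 1 array, and the fifth, a rise of Orai1, picked with its values in view, did not. The potassium channel gene Kcna3, which sustains calcium entry, fell by 0.73 (adjusted p = 0.00861). None of the 4 measured calcineurin genes, picked after their values were seen, Ppp3ca, Ppp3cb, Ppp3cc and Ppp3r1, passed on the deposited scale, with differences of -0.25 to 0.18. After centring, Ppp3r1 (-0.41, limma adjusted p = 0.034) and Ppp3cc (-0.36, limma adjusted p = 0.0176) were called lower. Ppp3r1 was also called lower without the glutamine-free replicate 1 (adjusted p = 0.0473).

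Genes that oppose NFAT fell in 5 of 14 cases and rose in 1, with a median difference of -0.11, but 1 of these 6 calls held under both scalings and without any 1 array. That gene was Lrrk2, described as a negative regulator of NFAT, at 7.30 ± 0.20 log2 without glutamine and 8.76 ± 0.14 with it (-1.47, adjusted p = 0.000741). Dyrk2 (-0.40) and Csnk1a1 (-0.33), genes for kinases that phosphorylate NFAT, fell, and the kinase gene Gsk3b rose by 0.33. The call of Dyrk2 was lost without replicate 1 or 2 of either group (adjusted p 0.0839 to 0.100), and that of Csnk1a1 without any 1 array but the glutamine-free replicate 1 (0.0688 to 0.119). The call of Gsk3b was lost without any 1 array but replicate 3 with glutamine (0.0829 to 0.116), after centring (0.228) and after quantile normalization (0.128). Rcan1, an NFAT target that feeds back on calcineurin and that was picked with its values in view, was 7.87 ± 0.11 without glutamine and 8.14 ± 0.16 with it (adjusted p = 0.125). After centring, Rcan1 was called lower (-0.42, limma adjusted p = 0.0325).

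On the route from RAS through ERK to SRF, 3 of 12 measured genes rose and 1 fell, with a median difference of 0.062 that turned to -0.093 after centring and -0.012 after quantile normalization. Map2k1, which encodes the ERK-activating kinase MEK1, fell by 1.92 (10.60 ± 0.32 log2 without glutamine and 12.52 ± 0.26 with it; adjusted p = 0.00132). The RAS activator gene Sos2 (0.96, adjusted p = 0.00137) and Elk1, the ERK target that acts with SRF (0.87, adjusted p = 0.000755), rose, and these 3 calls held under both scalings and without any 1 array. The rise of Braf (0.33) was lost under both scalings (0.247 after centring and 0.0617 after quantile normalization) and without any 1 array but replicate 3 of the cultures with glutamine (0.0974 to 0.126). Of the 9 feedback inhibitors of ERK signalling, 3 rose and 3 fell, with a median difference of 0.34. Spry1 (1.23), the ERK phosphatase gene Dusp6 (1.16) and Spred1 (0.83) rose and held throughout. None of the 3 falls held when arrays were left out: 1 fall was called without any 1 glutamine-free array and 2 falls without any 1 array with glutamine. Spred2 and Spry2 were picked with their values in view. Spred2 was lost without any 1 glutamine-free array (adjusted p 0.0818 to 0.103), and Spry2 without any 1 array but the glutamine-free replicate 2 (0.0506 to 0.0732). Dusp4, another ERK phosphatase gene, fell by 1.10 (adjusted p = 0.0172, and 0.0588 without the glutamine-free replicate 2).

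The falls of the NR4A genes stood beside falls among some other immediate early genes. Of 19 measured immediate early genes outside the 3 families, 2 rose, 7 fell and 10 did not pass, with a median difference of -0.42. All 7 falls held under both scalings and without any 1 array. Over all genes, 13.0% fell and 8.05% had falls that held in this way. Ier3 fell by 2.09 (5.56 ± 0.14 log2 without glutamine and 7.65 ± 0.59 with it), the AP-1 gene Fosl2 fell by 1.64 (9.31 ± 0.01 without glutamine and 10.95 ± 0.41 with it), Klf6 fell by 1.12 and Jund fell by 1.001 (limma adjusted p = 0.00355, 0.00219, 0.00393 and 0.00962 in that order). The rises, both picked with their values in view, were those of the AP-1 gene Fosl1 (0.72, adjusted p = 0.00899) and Btg2 (0.58, adjusted p = 0.044). The call of Btg2 was lost under both scalings (0.0981 after centring and 0.127 after quantile normalization) and without replicate 2 or 3 of either group (0.0914 to 0.138).

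Genes known as targets or partners of these factors did not follow 1 direction. Of 13 EGR corepressor and anergy-linked genes, 2 rose and 6 fell, with a median difference of -0.30, and 5 of the falls and neither rise held under both scalings and without any 1 array. Nab2, the corepressor that EGR proteins induce and that then binds them, fell by 0.77 (11.98 ± 0.18 log2 without glutamine and 12.75 ± 0.14 with it; adjusted p = 0.00613); its values were known when it was picked. The neuritin gene Nrn1, linked to anergic T cells, differed by -5.997 (8.32 ± 0.54 without glutamine and 14.32 ± 0.30 with it; adjusted p = 0.000106). Ndrg1 fell by 3.78, Tnfrsf9 fell by 2.41 and Crtam fell by 2.36. Of 10 genes of the inhibitory receptor and TOX programmes, in which NR4A proteins are known to act, 4 rose and 4 fell, with a median difference of -0.25. The rise of Lag3, picked with its values in view, is counted both here and among the anergy-linked genes. Not all 10 encode receptors or TOX factors, since Nfil3 encodes another transcription factor. Tox2 (6.17 ± 0.15 without glutamine and 4.91 ± 0.15 with it), Tox (10.07 ± 0.08 without glutamine and 8.89 ± 0.32 with it) and Pdcd1, which encodes PD-1 (13.97 ± 0.305 without glutamine and 12.84 ± 0.27 with it), rose, and Nfil3 fell by 0.83, and these 4 calls held under both scalings and without any 1 array. The other calls did not, and leaving out 1 array gave 3 or 4 rises and 1 to 3 falls, with 1 fall without the glutamine-free replicate 2 or 3 and 2 falls without the glutamine-free replicate 1 or replicate 1 or 3 with glutamine.

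Of 13 cytokine and ligand genes that NFAT is known to control, 6 rose and 4 fell, with a median difference of 0.089 that turned to -0.07 after centring and -0.10 after quantile normalization. Of these calls, 4 rises and 2 falls held under both scalings and without any 1 array, and leaving out 1 array gave 4 or 5 rises and 3 or 4 falls. The largest rises were those of Ifng (1.98), Csf2 (1.30), which encodes GM-CSF, and Tnf (1.15), and the largest fall was that of Il3 (-3.07). Il2, the classical NFAT target, again picked with its values in view, was 13.60 ± 0.24 log2 without glutamine and 14.39 ± 0.28 with it (-0.79, adjusted p = 0.0211). Without 1 array the adjusted p of Il2 was 0.0628 (glutamine-free replicate 2), 0.0593 (glutamine-free replicate 3), 0.0583 (replicate 1 with glutamine) or 0.0518 (replicate 3 with glutamine). These lists were chosen with results of these arrays known, and their counts are set against 9.30% of all genes higher and 13.0% lower. Counts of calls that held under both scalings and without any 1 array are set against 2.92% of all genes for rises and 8.05% for falls.

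**Figure D4:**
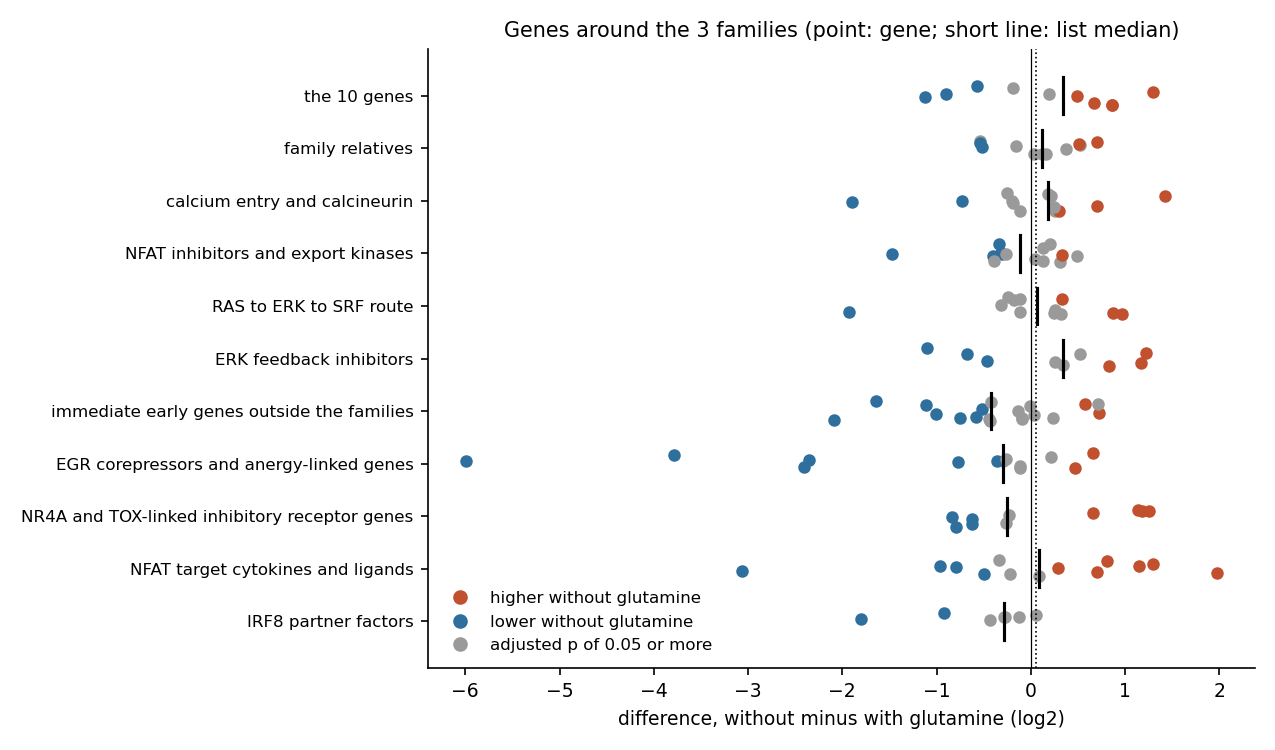
Differences without minus with glutamine (x axis, log2) of the 10 genes and of the genes in 10 lists around them (y axis); each point is a gene, coloured by its call, the short line is the list median and the dotted line the median of all genes, 0.060. Every list but that of the IRF8 partner factors holds calls in both directions, and the immediate early genes lie mostly left of 0.

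Within a group the members also differed between arrays. In the glutamine-free replicate 3, Nfatc1, Nfatc2 and Nfatc3 lay 0.31, 0.43 and 0.14 log2 above their group means, while Egr2 lay 0.35, Egr1 0.16 and Nr4a1 0.17 below theirs. Replicate 3 with glutamine was also the highest of its group for the 3 NFAT genes (0.29, 0.18 and 0.09 above the mean), and there Egr1 and Egr2 were high too (0.23 and 0.24). With 3 arrays a group these are descriptions of single arrays.

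**Figure D5:**
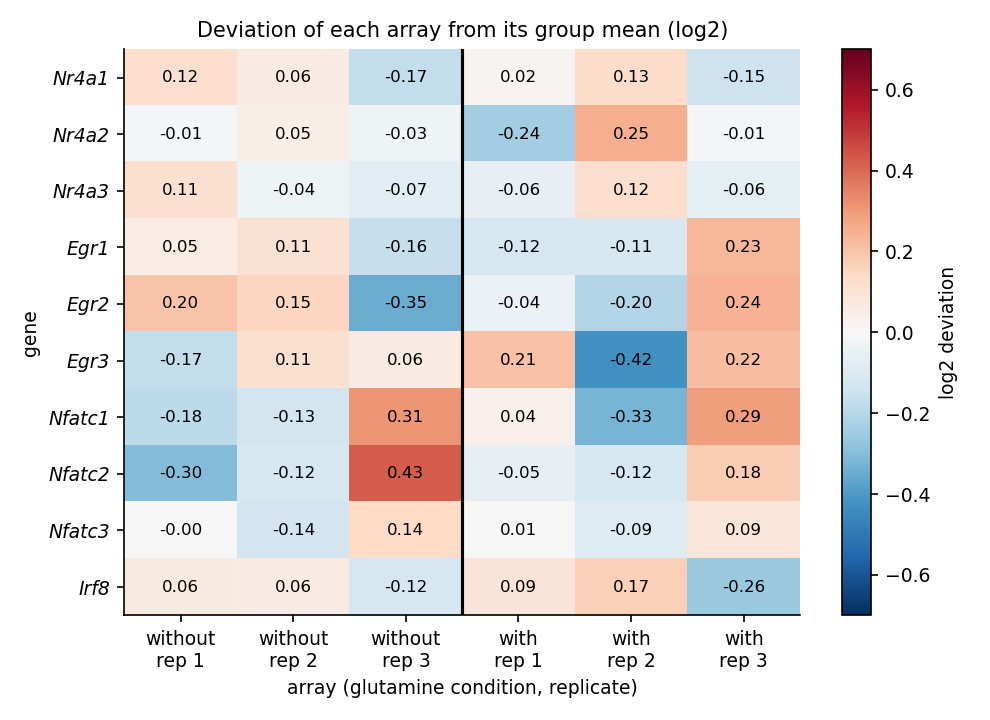
Deviation of each array (x axis) from the mean of its own group for the 10 genes (y axis), in log2; red is above and blue below the group mean. Replicate 3 without glutamine is high for the 3 NFAT genes and low for Egr1 and Egr2, and replicate 2 with glutamine is low for Egr3 (-0.42) and Nfatc1 (-0.33).

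Genes with the most similar profiles were sought for the 2 members that rose most and the 2 that fell most, by the root mean square difference of mean-centred levels over the 6 arrays among 20205 genes. Closest to Nfatc1 were Zmat3 (0.10 log2), a p53 target gene, Zfp36l1 (0.10), which encodes an RNA-binding protein that destabilises transcripts, and Zfp318 (0.11). Closest to Irf8 were Mxd4 (0.049), which encodes a MAX partner that opposes MYC, and the pseudogenes Eef2-ps2 (0.061) and Rps18-ps1 (0.070), whose rows may share probes with their parent genes. Closest to Nr4a2 were Tirap (0.054), Tm6sf1 (0.059) and Spire1 (0.064). Closest to Nr4a1 were Pgm3 (0.028), an enzyme gene of the hexosamine pathway, Cs (0.033), the citrate synthase gene, and Pmpca (0.044), a subunit of the mitochondrial processing peptidase. Since every such profile holds the group difference, these names describe likeness over 6 arrays and nothing more.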

How the data were processed

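Affymetrix GeneChip arrays were hybridised with RNA from 3 cultures without and 3 with glutamine. Per the submitters' processing notes, the authors used RMA through Transcriptome Analysis Console 4.0, and the deposited log2 values are its output, 1 for each array row. Options and genome build were not given in the sources used here. No column was set aside as another sample's. Names come from the platform annotation, and older symbols were replaced by those of RefSeq (GRCm38.p6). Of 65956 rows, 31258 named 1 gene, 1492 several and 33206 were unnamed here. The row with the highest mean stood for a gene with several, which left 30701 genes and no filter on dim ones; listed genes without such a row are not analysed here.

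The test was limma 3.58.1 under R 4.3.3, two-sided, with lmFit followed by eBayes, without minus with glutamine, with no covariate, and Benjamini-Hochberg adjustment over all genes at 0.05. The fit was tested on simulated data. Intervals are 95% intervals from the same fit. The number of arrays limits the precision. The members and lists were chosen with earlier results of these data known. Named genes are all members, all family relatives, in each list up to 4 genes with the largest differences past the threshold (or its 2 brightest), and the 3 nearest profiles of 4 members, leaving out predicted genes, microRNAs and snoRNAs; any other is marked as picked with its values in view. Motifs were searched in Python 3.11.15, and figures drawn with matplotlib 3.10.9. The alternatives were 16 settings of scaling, filtering, rows, variance model, threshold, replicate block and left-out arrays.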

Additional observations from a re-analysis of the deposited data

How the results depend on the processing

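Over 16 alternatives, the falls of Nr4a1, Nr4a2 and Nr4a3 and the rises of Nfatc1, Nfatc3 and Irf8 kept direction and call, with adjusted p of at most 0.0467. Egr1 lost its call in 9 of them and Egr2 in 6, so that 3 members were called higher with the unmoderated statistic and 3 at adjusted p under 0.01, and 3 to 5 when 1 array was left out, the 3 arising without replicate 1 or 2 of either group. Nfatc2, not called in any, reversed to -0.0215 without the glutamine-free replicate 3, the lowest of -0.0215 to 0.34 over the left-out arrays. Over all genes, quantile normalization gave 1455 higher and 5252 lower, centring 1216 higher and 6128 lower, the unmoderated statistic 1415 and 2418, adjusted p under 0.01 801 and 2143, and leaving out 1 array 1395 to 2490 higher and 2666 to 4012 lower. Rises dropped to 1395, 1690 and 1874 without the glutamine-free replicates 2, 3 and 1, and to 1437 without replicate 2 with glutamine. The share of calls that were rises was 41.7% on the deposited scale, 21.7% with quantile normalization and 16.6% with centring, where the median difference of all genes was 0.060, -0.048 and -0.095. Falls in the lists were more frequent under quantile normalization, centring or both: 9 and 11 immediate early genes, 8 and 8 EGR-linked genes, 6 and 6 NR4A and TOX-linked genes, 3 and 6 IRF8 partners, and, with centring, 5 calcium genes and 5 on the RAS route. Falls were also more frequent over all 30701 genes, at 5252 with quantile normalization and 6128 with centring, against 3989 on the deposited scale. The labels do not say whether the replicate numbers pair the arrays. The deviations of same-numbered arrays correlated across genes at 0.07, -0.23 and 0.28, and those of differently numbered arrays at -0.33 to 0.30. With 3 arrays a group these values cannot decide whether the arrays are paired. With the replicate block 4 members were higher and 3 lower, Egr1 being lost (adjusted p = 0.0801), and 2549 genes were higher and 3744 lower.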
